A study of Bos taurus with 48 samples.

Results

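The miRNAs described here were bta-miR-15a, bta-miR-15b, bta-miR-16a, bta-miR-16b, bta-miR-195 and bta-miR-497. They were chosen by name, as every entry of a table of 524 bovine miRNAs that carries 1 of these names, and 6 of 6 names were found. The table held 48 small RNA libraries of cattle (Bos taurus) from the liver, the mammary parenchyma (the part of the udder that holds the epithelial ducts) and the mammary fat pad around it. In each tissue the animals had received milk replacer ad libitum, a restricted amount of milk replacer, or the control feeding. There were 6 ad libitum, 6 restricted and 5 control libraries of the liver, 6, 6 and 3 of the parenchyma, and 6, 6 and 4 of the fat pad. All tissue had been taken after slaughter. The sources used here do not give the breed, age or sex of the animals or the composition of the control feed. The ad libitum and restricted libraries together are called milk replacer libraries below, 12 in each tissue.

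A miRNA guides the Argonaute protein to messenger RNAs that pair with its seed, the stretch of bases near its 5′ end, and lowers their translation and stability. miR-15, miR-16, miR-195 and miR-497 share 1 seed and are therefore counted as 1 family, together with miR-424 and miR-503, which carry the same or a closely related seed. In human and mouse cells, known targets of the family include cyclins such as CCND1 and CCNE1, the kinase CDK6 and the survival factor BCL2, so that the family is best known as a brake on the cell cycle. The genes are arranged in pairs that are transcribed together, and in the human genome the miR-15a and miR-16 pair is a known tumour suppressor lost in chronic lymphocytic leukaemia. In the bovine RefSeq annotation (ARS-UCD2.0), which was used for names and neighbours only, MIR15A lies next to MIR16A, within the transcribed pseudogene LOC100847818. MIR15B lies next to MIR16B inside SMC4, the gene of a condensin subunit that is used when chromosomes condense. MIR195 lies next to MIR497 in the long non-coding RNA gene LOC107131510.

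The values are normalized read counts, that is, reads per miRNA divided by 1 size factor per library. The reads assigned to miRNAs, estimated from the table, numbered 826776 to 5146724 per liver library, 6193678 to 11291532 per parenchyma library and 2123962 to 9522666 per fat pad library. All 6 miRNAs were above 0 in all 48 libraries, and the fewest reads behind a value were 19 for miR-15a, 27 for miR-15b, 115 for miR-497, 169 for miR-16b, 334 for miR-195 and 374 for miR-16a. Single values of miR-15a and miR-15b, with the fewest reads, are therefore the least precise. Mature miR-16a and miR-16b are nearly identical, and how reads that fit both were divided was not stated in the sources, so their separate levels are uncertain. The numbers in the titles of the libraries recur across tissues without a statement that they stand for animals, and p-values therefore measure the spread between libraries, which may in part be technical.

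The tissue labels were checked against miRNAs of known cell types. The summed level of 3 of 3 hepatocyte miRNAs ranged from 883099 to 1630010 normalized read counts in milk replacer livers, against 2918 to 4556 in milk replacer parenchyma and 2907 to 7967 in milk replacer fat pad. The summed level of 10 of 10 epithelial miRNAs ranged from 61371 to 110903 in milk replacer parenchyma, against 17.4 to 436 in milk replacer fat pad, where miR-141, miR-429, miR-96 and miR-375 were listed at 0 in all 12 libraries. In milk replacer livers the epithelial sum was 6539 to 22525. Of that list miR-375 was higher in these livers (82.2 to 240) than in milk replacer parenchyma (15.5 to 98.9), with some overlap. In the 3 control parenchyma libraries the epithelial sum was 92.5 to 421, with miR-429 and miR-375 listed at 0, so these libraries lack the defining miRNAs of the labelled tissue. Control parenchyma replicate 18 also had a summed level of 7 of 7 blood and immune cell miRNAs of 100531, against 5059 and 5376 in the other two. For this reason the tissues were compared in the milk replacer libraries first and in the control libraries separately.

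Each tissue had its own order of the 6 miRNAs. In milk replacer livers the mean values were 2837 ± 1134 for miR-16a, 1718 ± 558 for miR-195, 1261 ± 498 for miR-16b, 794 ± 183 for miR-497, 499 ± 219 for miR-15b and 194 ± 76.5 for miR-15a (SD, n = 12). In milk replacer parenchyma they were 1623 ± 205 for miR-497, 1545 ± 446 for miR-195, 1222 ± 459 for miR-16a, 800.2 ± 292 for miR-16b, 663 ± 131 for miR-15b and 68.8 ± 26.6 for miR-15a (SD, n = 12). In milk replacer fat pad they were 4709 ± 990 for miR-195, 3013 ± 430 for miR-16a, 1445 ± 295 for miR-497, 1353 ± 173 for miR-16b, 291 ± 57.2 for miR-15b and 92.9 ± 30.5 for miR-15a (SD, n = 12). The leading miRNA was thus miR-16a in the liver, miR-497 in the parenchyma and miR-195 in the fat pad, and miR-15a was last in each. The paper describes the libraries it analysed as ligation-based and names enzyme preference for certain miRNAs as a possible bias. Orders and ratios between different miRNAs are therefore those of read counts. Within a library miR-195 was above miR-16a in 0 of 12 livers, 12 of 12 parenchyma and 12 of 12 fat pad libraries fed milk replacer. miR-497 and miR-195 in parenchyma differed by less than their spread, and so did miR-497 and miR-16b in the fat pad.

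The family was moderately abundant in each tissue. By mean value miR-16a was number 93 of the 381 miRNAs above 0 in milk replacer livers, miR-497 number 119 of 490 in parenchyma and miR-195 number 70 of 413 in the fat pad. miR-15a, the lowest of the 6 in read counts, was number 196 in the liver, 265 in parenchyma and 222 in the fat pad. The 6 together made up 0.130% of all normalized read counts in the liver, 0.177% in parenchyma and 0.238% in the fat pad.

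**Figure D1:**
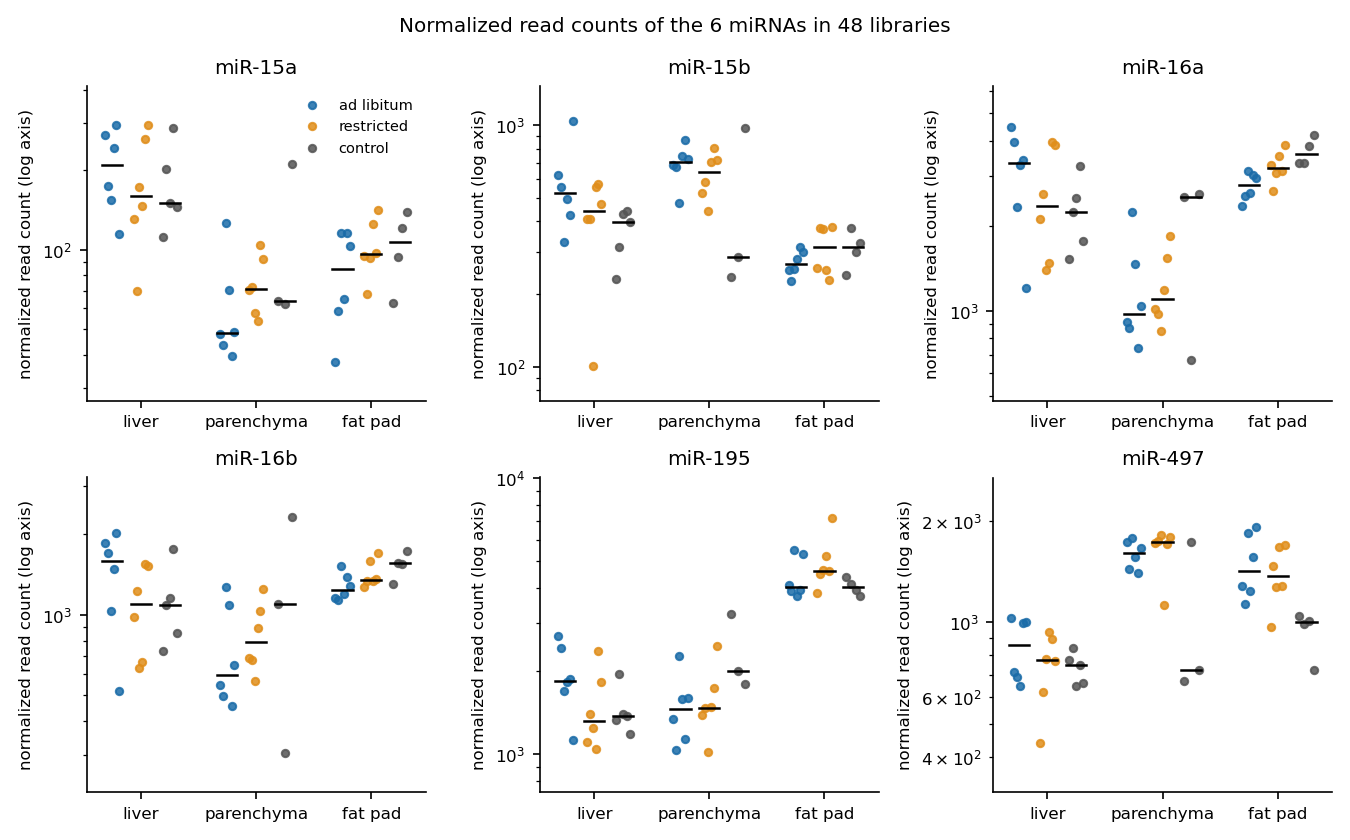
Normalized read counts (vertical axes, logarithmic) of the 6 miRNAs in 48 libraries, by tissue (horizontal axes) and feeding group (colours); each point is 1 library and each bar the median of a group. miR-195 in milk replacer fat pad (3740.0 to 7194) lies above all milk replacer parenchyma libraries (1018 to 2468), and the control parenchyma libraries scatter widely.

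The first comparison asked which members differed between the mammary parenchyma and its fat pad. In milk replacer libraries miR-15b was higher in parenchyma, and miR-16a, miR-16b and miR-195 were lower in it. By limma with Benjamini-Hochberg adjustment 4 of 6 members passed an adjusted p of 0.05, 1 higher and 3 lower, where 74.5% of the 345 miRNAs tested passed (46.1% higher and 28.4% lower). The share of members that passed is thus near that of all miRNAs. The median log2 fold change was -0.63 over the 6 members and 0.37 over all miRNAs tested.

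miR-195 had 1018, 1476 and 2468 normalized read counts in parenchyma (lowest, median and highest, n = 12) and 3740.0, 4561 and 7194 in the fat pad (n = 12). Every fat pad library was above every parenchyma library. Its log2 fold change, parenchyma over fat pad, was -1.63 ± 0.16 (SE, limma, adjusted p = 3.5e-11). miR-195 is known in the mouse for a rise after birth in the heart, where it holds back division of heart muscle cells.

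miR-16a had 736, 1027 and 2239 normalized read counts in parenchyma and 2351, 3047 and 3866 in the fat pad (lowest, median and highest, n = 12 each). The 2 groups did not overlap, although the highest parenchyma library came close to the lowest fat pad library. The log2 fold change was -1.37 ± 0.20 (SE, limma, adjusted p = 2.03e-07). For miR-16b the values were 457, 683 and 1268 in parenchyma and 1138, 1338 and 1694 in the fat pad, with an overlap at the top of the parenchyma range, and the log2 fold change was -0.83 ± 0.20 (SE, limma, adjusted p = 0.000366). The call of miR-16b was lost when each library was rescaled to a sum of 1000000 (-0.37, limma, adjusted p = 0.0992).

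miR-15b went the other way. It had 441, 693 and 871 normalized read counts in parenchyma and 226, 268 and 379 in the fat pad (lowest, median and highest, n = 12 each). All parenchyma libraries were above all fat pad libraries, and the log2 fold change was 1.18 ± 0.20 (SE, limma, adjusted p = 4.42e-06), a 2.27-fold higher level in parenchyma. miR-15b and miR-16b, whose genes lie in the same host gene, thus differed between the sites in opposite directions in the values as deposited. The part of reads shared with miR-16a in the level of miR-16b was not tested. miR-15a, which shares the seed of miR-15b, had 39.6, 63.8 and 126 normalized read counts in parenchyma and 37.5, 95.8 and 142 in the fat pad, with a wide overlap (log2 fold change -0.43, 95% interval -0.91 to 0.05, limma, adjusted p = 0.0959). Its difference passed the threshold without parenchyma ad libitum replicate 7 (-0.54, limma, adjusted p = 0.0302) or without fat pad ad libitum replicate 3 (-0.53, limma, adjusted p = 0.037).

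miR-497 had 1129, 1709 and 1821 normalized read counts in parenchyma and 970.3, 1375 and 1918 in the fat pad (lowest, median and highest, n = 12 each). The 2 ranges overlapped almost fully, and the log2 fold change was 0.18 with a 95% interval of -0.08 to 0.44 (limma, adjusted p = 0.197). With each library rescaled to a sum of 1000000 it was 0.64 (limma, adjusted p = 6.36e-05). Under that rescaling the median over all miRNAs shifted to a log2 fold change of 0.74 for parenchyma over fat pad, -0.93 for liver over parenchyma and -0.49 for liver over fat pad, against 0.37, -0.46 and -0.22 in the values as deposited.

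Marker miRNAs of several cell types differed between the 2 mammary sites as well. Besides the epithelial sums given above, the summed level of 2 of 2 endothelial miRNAs was 52569 to 106702 in milk replacer parenchyma, against 254628 to 431282 in milk replacer fat pad, with neither listed at 0 throughout. The sum of 3 of 3 erythroid miRNAs was 590 to 2297 in parenchyma, against 2138 to 4386 in the fat pad. The sum of 7 of 7 blood and immune cell miRNAs was 6705 to 15777 in parenchyma, against 3508 to 5094 in the fat pad, without overlap. Single miRNAs of that list went different ways. miR-146b (4118 to 10836, against 282 to 1549) and miR-223 (104 to 269, against 10.4 to 80.2) were higher in parenchyma without overlap. miR-142-5p and miR-142-3p had higher medians there. miR-155 was lower in parenchyma without overlap (128 to 316, against 765 to 1253), and miR-150 and miR-146a had slightly lower medians. The sum of 5 of 5 stromal and smooth muscle miRNAs was 356398 to 484879 in parenchyma, against 468974 to 771236 in the fat pad. Of these, miR-143 (118701 to 202002, against 235093 to 487874) and miR-145 (5260 to 15782, against 18479 to 29295) were lower in parenchyma without overlap. miR-199a-5p went the other way with some overlap (62562 to 109883, against 38362 to 68357), and the ranges of miR-199a-3p and miR-214 overlapped. The part of these cell types in the result was not tested. In tissue samples, fewer cells of a type and less RNA per cell cannot be told apart.

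The liver was then set against the parenchyma. In milk replacer libraries 5 of 6 members passed (limma, Benjamini-Hochberg), 3 higher and 2 lower in the liver, where 77.7% of 345 miRNAs passed (30.7% higher and 47.0% lower). miR-15a had 69.7, 173 and 297 normalized read counts in the liver and 39.6, 63.8 and 126 in parenchyma (lowest, median and highest, n = 12 each), and only the lowest livers reached into the parenchyma range. Its log2 fold change, liver over parenchyma, was 1.45 ± 0.23 (SE, limma, adjusted p = 9.67e-07). miR-16a, its gene neighbour, had 1209, 2931 and 4467 in the liver and 736, 1027 and 2239 in parenchyma, with a log2 fold change of 1.17 ± 0.20 (SE, limma, adjusted p = 2.17e-06). Both members of that pair were higher in the liver by a like amount.

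miR-16b was also higher in the liver (520, 1347 and 2004 normalized read counts, against 457, 683 and 1268 in parenchyma, log2 fold change 0.62, limma, adjusted p = 0.00537). Its partner miR-15b was lower in the liver (101, 483 and 1040 normalized read counts, against 441, 693 and 871 in parenchyma, log2 fold change -0.54, limma, adjusted p = 0.017). As between the 2 mammary sites, the members of the SMC4 pair differed in opposite directions in the values as deposited, although the liver range of miR-15b spanned that of parenchyma on both sides. Reads shared with miR-16a may again enter the level of miR-16b. Under rescaling to a sum of 1000000 the difference of miR-16b changed sign (-0.12, limma, adjusted p = 0.585) and that of miR-16a missed the threshold (0.43, limma, adjusted p = 0.053).

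miR-497 had 439, 774 and 1031 normalized read counts in the liver and 1129, 1709 and 1821 in parenchyma, without overlap (log2 fold change -1.06 ± 0.13, SE, limma, adjusted p = 3.29e-09). miR-195 had 1041, 1757 and 2690.0 in the liver and 1018, 1476 and 2468 in parenchyma, and these ranges covered each other (log2 fold change 0.13, 95% interval -0.19 to 0.45, limma, adjusted p = 0.442). Under rescaling to a sum of 1000000 the difference of miR-195 was -0.61 (limma, adjusted p = 0.000652), so its direction rests on the scaling.

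Between the liver and the fat pad 4 of 6 members passed (limma, Benjamini-Hochberg), 2 higher and 2 lower in the liver, where 79.4% of 345 miRNAs passed (34.5% higher and 44.9% lower). miR-195 was lower in the liver (log2 fold change -1.50, limma, adjusted p = 1.36e-10), and every liver (at most 2690.0 normalized read counts) was below every fat pad library (at least 3740.0). miR-497 was lower as well (-0.87, limma, adjusted p = 1.79e-07). miR-15a (1.02, limma, adjusted p = 0.000193) and miR-15b (0.64, limma, adjusted p = 0.00473) were higher in the liver. For miR-16a and miR-16b the differences were -0.20 (95% interval -0.60 to 0.20) and -0.21 (95% interval -0.62 to 0.19), which did not pass. With libraries rescaled to a sum of 1000000 miR-16a (-0.48, limma, adjusted p = 0.0308) and miR-16b (-0.49, limma, adjusted p = 0.0279) passed and miR-15b did not (0.36, limma, adjusted p = 0.151). Over the 3 contrasts the members fell into different orders of the tissues: miR-15b was highest in parenchyma, miR-195 in the fat pad and miR-15a in the liver, while miR-16a and, in the values as deposited, miR-16b were lowest in parenchyma and miR-497 was lowest in the liver.

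**Figure D2:**
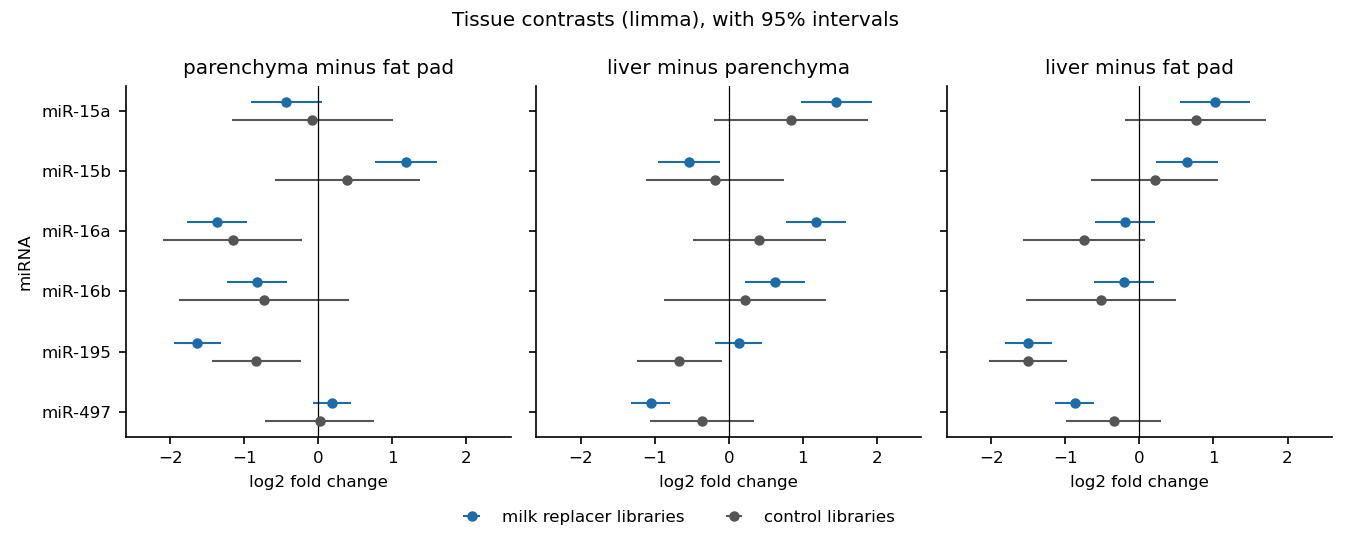
log2 fold changes of the 6 miRNAs (horizontal axes) in the 3 tissue contrasts, with 95% intervals, from limma in milk replacer libraries (12 per tissue) and in control libraries (5 livers, 3 parenchyma, 4 fat pad). miR-15b is on the opposite side of 0 from miR-16b in the parenchyma against fat pad and the liver against parenchyma contrasts of the milk replacer libraries, in the values as deposited (with libraries rescaled to a sum of 1000000 miR-16b is at -0.12 in the second).

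The control libraries gave a second, smaller set for the same contrasts. Between control parenchyma and control fat pad 0 of 6 members passed (limma, Benjamini-Hochberg; 15.5% of 329 miRNAs passed), and 2 members had an unadjusted p under 0.05. These were miR-195, with 3229, 2011 and 1801 normalized read counts in control parenchyma replicates 1, 2 and 18 and 4400.1, 4153, 3933 and 3733 in control fat pad replicates 2, 18, 19 and 21 (log2 fold change -0.83, limma, adjusted p = 0.06), and miR-16a (-1.16, limma, adjusted p = 0.0858). All control parenchyma libraries were below all control fat pad libraries for miR-195. Without control parenchyma replicate 1 both passed (-1.09, limma, adjusted p = 0.00659, and -1.47, limma, adjusted p = 0.03). Without replicate 18 miR-16a passed as well (-1.49, limma, adjusted p = 0.0483), and without a filter on low values miR-195 did (-0.83, limma, adjusted p = 0.0486).

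miR-15b had 235, 286 and 971 normalized read counts in control parenchyma replicates 1, 2 and 18, against 240.2, 375, 299 and 327 in the control fat pad, and only replicate 18 was as high as the milk replacer parenchyma. Between control liver and control parenchyma 0 of 6 members passed (35.3% of 329 miRNAs passed), and 1 member, miR-195, had an unadjusted p under 0.05 (log2 fold change -0.67, limma, adjusted p = 0.066). It passed without control parenchyma replicate 18 (-0.84, limma, adjusted p = 0.0183), when miR-15a passed too (1.41, limma, adjusted p = 0.0157), without control liver replicate 2 (-0.78, limma, adjusted p = 0.0448), and with each library rescaled to a sum of 1000000 (-0.85, limma, adjusted p = 0.0202). Between control liver and control fat pad 1 of 6 passed, lower in the liver (47.4% of 329 miRNAs passed, 21.9% lower), again miR-195 (log2 fold change -1.50 ± 0.25, SE, limma, adjusted p = 0.000235). It had 1330, 1952, 1396, 1373 and 1185 normalized read counts in control livers 1, 2, 18, 19 and 21, all below the control fat pad. Without control parenchyma replicate 2, which enters that fit through the shared spread, miR-16a passed too (-0.75, limma, adjusted p = 0.02).

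Members of 1 gene pair are cut from the same transcript, and their ratio within a library, here of (value + 1), depends on the size factor only through the added 1. The ratio of miR-15b to miR-16b had a median of 0.336 in milk replacer livers (0.161 to 2.00), 0.784 in parenchyma (0.377 to 1.91) and 0.221 in the fat pad (0.168 to 0.281). Every milk replacer parenchyma library was above every fat pad library, and miR-15b exceeded miR-16b in 1 of 12 livers, 4 of 12 parenchyma libraries and 0 of 12 fat pad libraries. The liver was ad libitum replicate 15, in which miR-15b was the highest of all livers (1040 normalized read counts) and miR-16a and miR-16b the lowest (1209 and 520). In control livers the ratio was 0.317 at the median (0.253 to 0.468), in control parenchyma 0.42 (0.215 to 0.938) and in control fat pad 0.192 (0.186 to 0.241). Ratios with miR-16a or miR-16b depend on how reads shared by these 2 miRNAs were divided.

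The ratio of miR-497 to miR-195 behaved alike. Its median was 0.415 in milk replacer livers (0.294 to 0.903), 1.11 in parenchyma (0.724 to 1.79) and 0.316 in the fat pad (0.236 to 0.395). The parenchyma and fat pad ranges were apart, and miR-497 exceeded miR-195 in 7 of 12 milk replacer parenchyma libraries and in 0 of the other 36 libraries. In control libraries the median ratio was 0.547 in the liver (0.432 to 0.58), 0.401 in parenchyma (0.208 to 0.86) and 0.238 in the fat pad (0.193 to 0.258).

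The ratio of miR-15a to miR-16a was low in every tissue, with medians of 0.0706 in milk replacer livers (0.0273 to 0.124), 0.0543 in parenchyma (0.0461 to 0.0751) and 0.031 in the fat pad (0.0164 to 0.0385). miR-16b over miR-16a was 0.447 in the liver (0.391 to 0.585), 0.669 in parenchyma (0.566 to 0.753) and 0.45 in the fat pad (0.378 to 0.518). The parenchyma and fat pad ranges of both ratios were apart. miR-15b over miR-15a, the ratio of the 2 miR-15 forms, had a median of 2.23 in the liver, one of 9.2 in parenchyma and one of 2.79 in the fat pad.

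**Figure D3:**
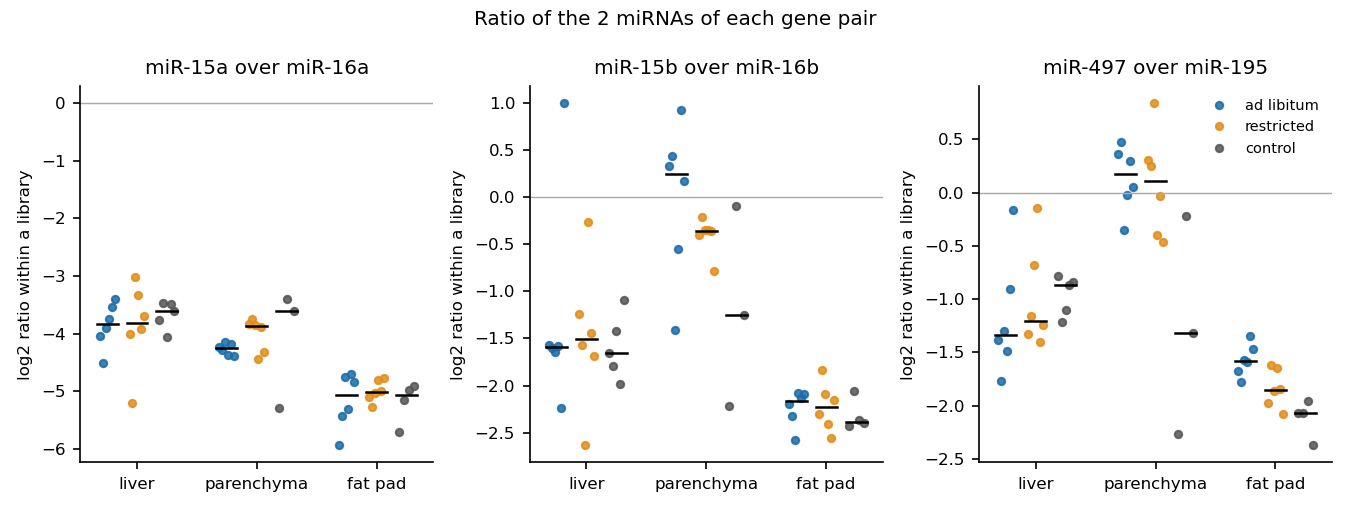
Within-library log2 ratio of the 2 miRNAs of each gene pair (vertical axes), by tissue (horizontal axes) and feeding group (colours); points are libraries, bars are medians and the grey line marks equal levels. Milk replacer parenchyma lies above milk replacer fat pad in all 3 panels, with median ratios in the last panel of 1.11 and 0.316.

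Partners of a pair were also compared across the 12 milk replacer libraries of each tissue, over 15 relations with Benjamini-Hochberg adjustment. Values of 1 library share a size factor. miR-15a and miR-16a varied together in parenchyma (Pearson r = 0.882, adjusted permutation p = 0.000713, Spearman rho = 0.804, adjusted permutation p = 0.00783) and in the fat pad (r = 0.923, adjusted permutation p = 0.0001, rho = 0.825, adjusted permutation p = 0.00656). Without the 2 libraries farthest from the median of miR-15a, r was 0.78 and 0.884. In the liver r was 0.607 (adjusted permutation p = 0.0683) and rho 0.72 (adjusted permutation p = 0.0272), and r was 0.795 without 2 libraries.

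The other pairs varied together less evenly. miR-195 and miR-497 had r = 0.731 in the fat pad (adjusted permutation p = 0.0152, rho = 0.832, adjusted permutation p = 0.00656, r = 0.807 without 2 libraries), but 0.27 in the liver and 0.29 in parenchyma (adjusted permutation p = 0.501 for both, rho 0.238 and 0.168, adjusted permutation p = 0.62 and 0.649, r without 2 libraries 0.162 and 0.028). miR-15b and miR-16b had r = 0.173 in the liver (adjusted permutation p = 0.711, rho = 0.245, adjusted permutation p = 0.62, r = 0.267 without 2), -0.04 in parenchyma (adjusted permutation p = 0.964, rho = -0.04, adjusted permutation p = 0.904, r = 0.0714 without 2) and 0.618 in the fat pad (adjusted permutation p = 0.0683, rho = 0.608, adjusted permutation p = 0.0758, r = 0.541 without 2). miR-16a and miR-16b, which lie in different pairs, had r = 0.974 in the liver and 0.967 in parenchyma (adjusted permutation p = 7.5e-05 for both, from the smallest p that 100000 resamples can give), with rho of 0.923 and 0.951 (adjusted permutation p = 0.00075 and 0.00015) and r of 0.946 and 0.973 without 2 libraries. In the fat pad r was 0.744 (adjusted permutation p = 0.0152, rho = 0.643, adjusted permutation p = 0.0588) and 0.5 without 2 libraries, and with libraries rescaled to a sum of 1000000 it was 0.409. Since the 2 sequences are nearly identical, shared reads may add to this relation, which was not tested. miR-15a and miR-15b had r of 0.016 in the liver, -0.31 in parenchyma and 0.274 in the fat pad (adjusted permutation p = 0.964, 0.501 and 0.501), with rho of 0.168, -0.20 and 0.35 (adjusted permutation p = 0.649, 0.649 and 0.443) and r of -0.035, -0.31 and -0.08 without 2 libraries. Under the same rescaling r was 0.66 in the liver, 0.875 in parenchyma and 0.894 in the fat pad for miR-15a and miR-16a, and 0.478, 0.105 and 0.704 in these tissues for miR-195 and miR-497. It was 0.416, 0.133 and 0.461 for miR-15b and miR-16b, and 0.279, -0.16 and -0.01 for miR-15a and miR-15b, while miR-16a and miR-16b had 0.978 in the liver and 0.968 in parenchyma.

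**Figure D4:**
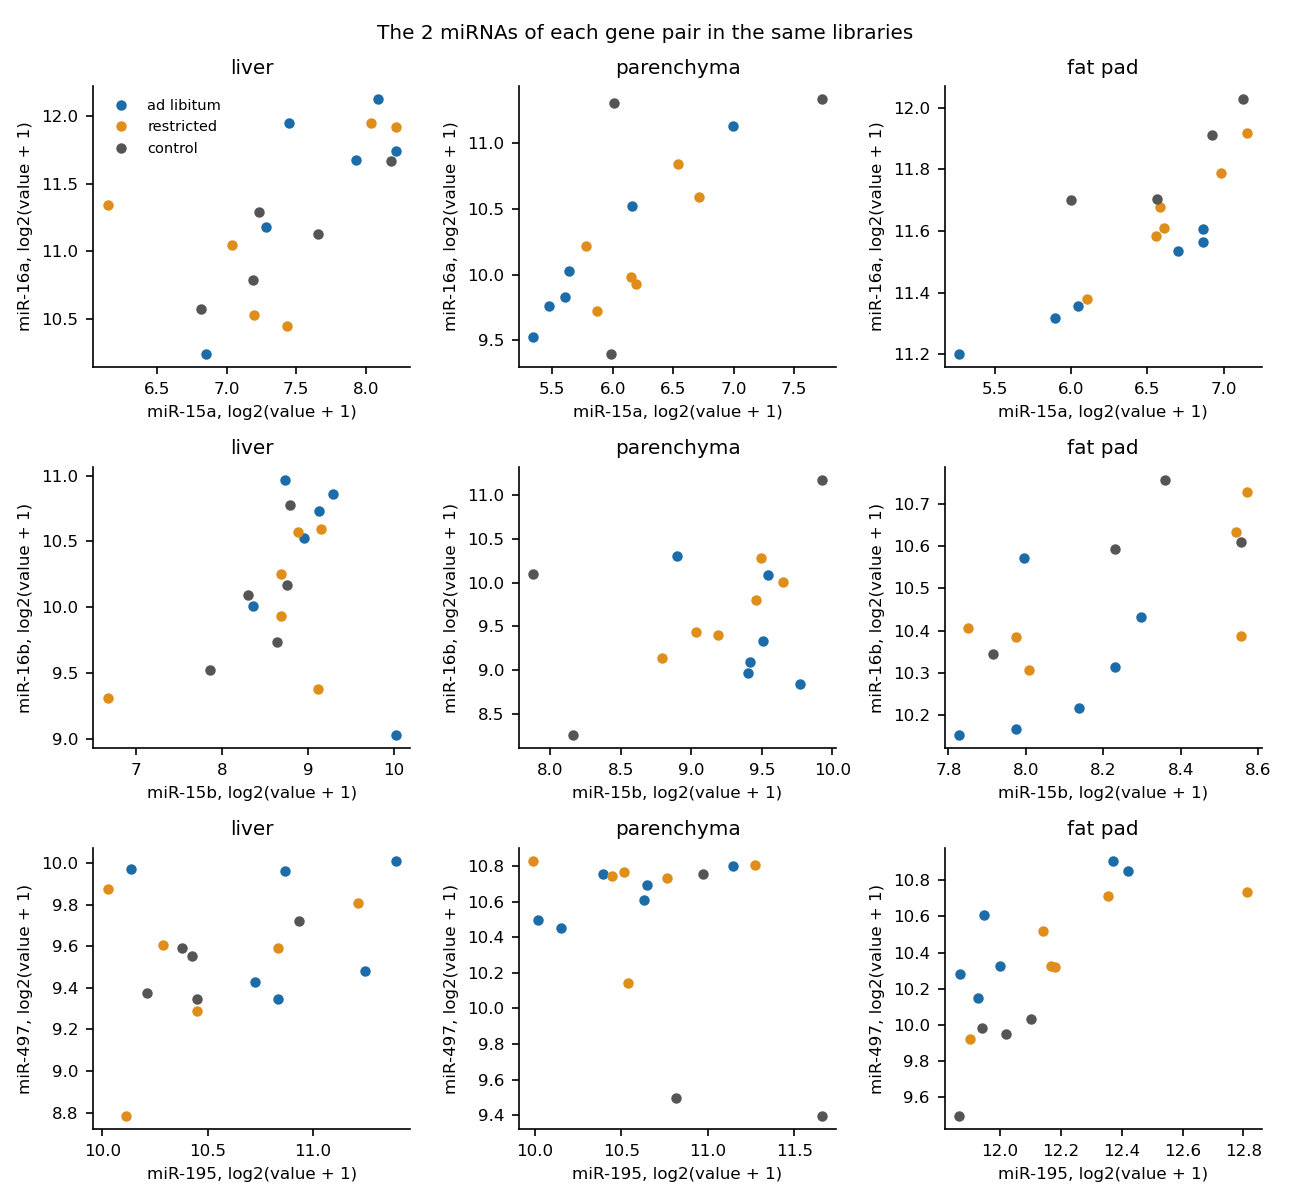
The 2 miRNAs of each gene pair plotted against each other on the log2(value + 1) scale, with 1 row of panels per pair and 1 column per tissue; points are libraries and colours the feeding groups. In milk replacer parenchyma miR-15a and miR-16a lie along a line (r = 0.882), while miR-15b and miR-16b do not (r = -0.04).

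The feeding comparisons asked whether the amount of milk replacer, or milk replacer against the control feeding, went with a change. Between ad libitum and restricted animals 0 of 6 members passed in the liver (limma, 0.324% of 309 miRNAs passed), 0 of 6 in parenchyma (0% of 339 passed) and 0 of 6 in the fat pad (16.6% of 301 passed), and 0 members had an unadjusted p under 0.05 in any tissue. The log2 fold changes, ad libitum over restricted, lay between 0.21 and 0.55 in the liver, between -0.34 and 0.15 in parenchyma and between -0.39 and 0.10 in the fat pad. The narrowest interval was that of miR-16a in the fat pad, with 2351, 2792 and 3120.1 normalized read counts in ad libitum libraries and 2663, 3197 and 3866 in restricted libraries (lowest, median and highest, n = 6 each). Its difference was -0.23 (95% interval -0.46 to 0.00, limma, adjusted p = 0.164). The widest were those of miR-16b in parenchyma (-1.11 to 0.63) and miR-15b in the liver (-0.22 to 1.32), and differences within these intervals cannot be told from none.

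miR-497 was the member that differed between milk replacer and control feeding, in both mammary sites. In the fat pad it had 970.3, 1375 and 1918 normalized read counts in milk replacer libraries (lowest, median and highest, n = 12) and 1047, 987, 1013 and 721 in control replicates 2, 18, 19 and 21. All but 1 of the milk replacer libraries, restricted replicate 4, were above all controls. The log2 fold change, milk replacer over control, was 0.60 ± 0.17 (SE, limma, adjusted p = 0.0274), and 1 of 6 members passed, higher, where 11.0% of 301 miRNAs passed (7.31% higher). Leaving out control replicate 18, 19 or 21 gave 0.63, 0.64 and 0.48 (limma, adjusted p = 0.051, 0.0539 and 0.121), so the call rests on each of these controls. Cell type markers were looked at here too. The endothelial sum was 254628 to 431282 in milk replacer fat pad, against 357955 to 602206 in control fat pad. These ranges overlapped, with medians of 348570 and 500445. The blood and immune cell sum was 3508 to 5094, and the controls, at 4309 to 4689, lay inside that range. miR-155 of that list was 765 to 1253, against 1450 to 1952 in controls, without overlap. All others of the list overlapped, and miR-146a and miR-146b had higher medians with milk replacer (838 and 562, against 504 and 376 in controls). The part of these markers in the result was not tested.

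In parenchyma miR-497 had 1129, 1709 and 1821 normalized read counts in milk replacer libraries and 671, 1729 and 722 in control replicates 1, 2 and 18. Control replicates 1 and 18 were below all 12 milk replacer libraries, while replicate 2 was among them. The log2 fold change was 0.77 ± 0.27 (SE, limma, adjusted p = 0.0289), and 1 of 6 members passed, higher, where 45.4% of 339 miRNAs passed (30.1% higher). Without control replicate 1 it was 0.53 (limma, adjusted p = 0.166), without control replicate 18 it was 0.58 (limma, adjusted p = 0.115), without control replicate 2 it was 1.21, and with libraries rescaled by the median ratio it was 0.70 (limma, adjusted p = 0.0568).

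The other members did not pass in parenchyma, and 3 of them turned on 1 control library. miR-15b had a log2 fold change of 0.69 (95% interval -0.04 to 1.42, limma, adjusted p = 0.12), which was 1.32 without control replicate 18 (limma, adjusted p = 0.000703) and 1.02 with libraries rescaled to a sum of 1000000 (limma, adjusted p = 0.0385). miR-16a had 2526, 671 and 2588 normalized read counts in control replicates 1, 2 and 18, so that replicate 2 lay below the milk replacer range and the other two above it (log2 fold change -0.50, limma, adjusted p = 0.325, and -1.15 without replicate 2, limma, adjusted p = 0.0184). miR-16b had 1093, 305 and 2313 in the same controls (-0.28, limma, adjusted p = 0.648, and -1.08 without replicate 2, limma, adjusted p = 0.0384). Control parenchyma lacked the epithelial miRNAs, as given above, and had an endothelial sum of 172748 to 426786 against 52569 to 106702 in milk replacer parenchyma. Their part in the result was not tested.

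In the liver 0 of 6 members passed between milk replacer and control (limma, 6.80% of 309 miRNAs passed, 0 members with an unadjusted p under 0.05). miR-497 had 439, 774 and 1031 normalized read counts in milk replacer livers and 771, 842, 649, 751 and 663 in control replicates 1, 2, 18, 19 and 21, and the controls lay inside the milk replacer range (log2 fold change 0.08, 95% interval -0.34 to 0.50, limma, adjusted p = 0.861). In the fat pad miR-16a was 1 further member with an unadjusted p under 0.05 (-0.29, limma, adjusted p = 0.0921).

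Whether the feeding effects differed between tissues was tested directly. For milk replacer against control, 2 of 6 members had a different effect in the liver than in parenchyma (limma, 1 with a positive and 1 with a negative difference, where 40.3% of 345 miRNAs passed, 17.1% positive and 23.2% negative). The difference of the effects, liver minus parenchyma, was 0.80 ± 0.31 for miR-195 (SE, limma, adjusted p = 0.0345) and -0.69 ± 0.29 for miR-497 (SE, limma, adjusted p = 0.0492). Both rest on few libraries: without control parenchyma replicate 1 they were 0.55 (limma, adjusted p = 0.203) and -0.45 (limma, adjusted p = 0.267). Without control parenchyma replicate 2, 4 of 6 members passed, a count that was not set against the share of all miRNAs in that fit. The 4 then included miR-16a, at 1.402 (limma, adjusted p = 0.00734) against 0.76 with all libraries (limma, adjusted p = 0.167), and miR-16b, at 1.198 (limma, adjusted p = 0.0292) against 0.40 with all libraries (limma, adjusted p = 0.533). miR-195 passed in 44 and miR-497 in 18 of 48 fits that left out 1 library, and miR-195 missed the threshold with libraries rescaled to a sum of 1000000 (0.24, limma, adjusted p = 0.563).

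For the same contrast 0 of 6 members had a different effect in parenchyma than in the fat pad (limma, 25.8% of 345 miRNAs passed, 1 member, miR-195, with an unadjusted p under 0.05) and 0 of 6 in the liver than in the fat pad (11.3% passed, 0 members with an unadjusted p under 0.05). The difference of miR-195, parenchyma minus fat pad, was -0.80 (limma, adjusted p = 0.061), and it passed in 5 of 48 fits that left out 1 library. That of miR-15b was 0.79 (limma, adjusted p = 0.21), and 1.42 without control parenchyma replicate 18 (limma, adjusted p = 0.01615). For liver minus fat pad miR-497 was at -0.53 (limma, adjusted p = 0.217), and at -0.93 with libraries rescaled to a sum of 1000000 (limma, adjusted p = 0.017). For ad libitum against restricted, 0 of 6 members differed in parenchyma against fat pad (0% of 345 passed), liver against parenchyma (0.290% passed) and liver against fat pad (0% passed), with 0 members at an unadjusted p under 0.05 in each.

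**Figure D5:**
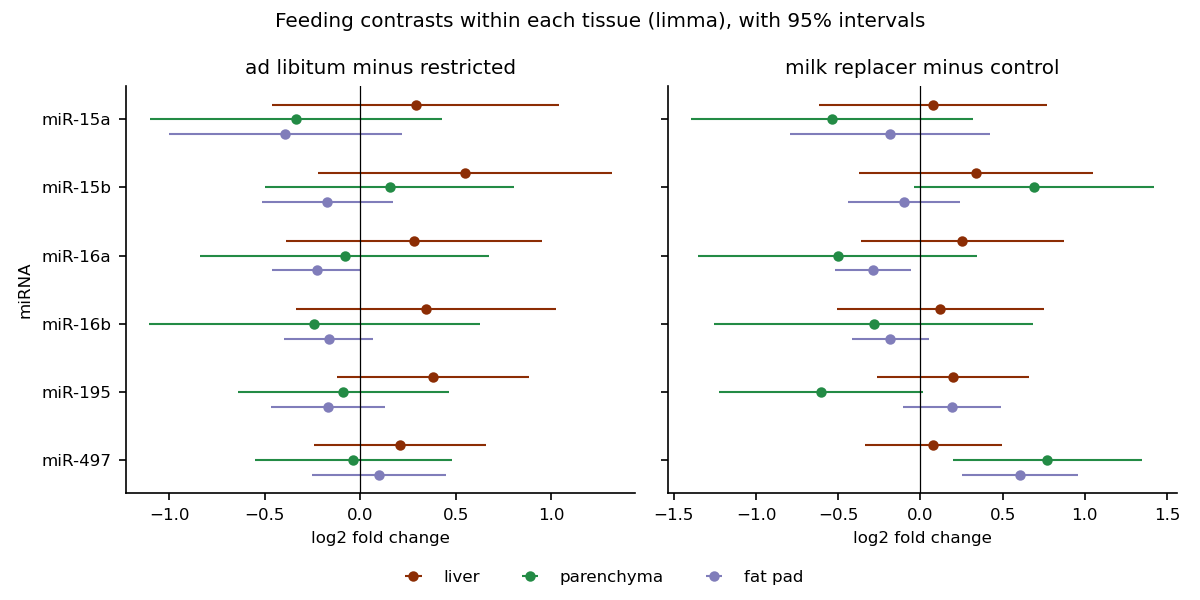
log2 fold changes of the 6 miRNAs (horizontal axes) between feeding groups within each tissue (colours), with 95% intervals from limma. In the milk replacer against control panel the intervals of miR-497 include 0 in the liver (0.08) and lie above it in parenchyma (0.77) and the fat pad (0.60).

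The X-linked relatives miR-424 and miR-503 were looked at as well. By seed only miR-424-5p and miR-503-5p are counted with the family, while miR-424-3p and miR-503-3p are the opposite strands. Of the 4 arms of miR-424 and miR-503, 4 were lower in the liver than in parenchyma and 4 lower in the liver than in the fat pad in milk replacer libraries (limma, where 47.0% and 44.9% of 345 miRNAs were lower in these contrasts). miR-503-3p was listed at 0 in all 17 livers, where 0 can stand for up to 5 reads. In the shallowest liver library 1 read was worth 6.2 normalized read counts, and miR-503-3p was only 8.9 to 34.8 in milk replacer parenchyma. The part of depth in this difference was not tested. miR-503-5p, whose seed is close to that of the 6 members, had 239, 428 and 591 normalized read counts in milk replacer parenchyma (lowest, median and highest, n = 12) and 41.7, 253 and 20.6 in control replicates 1, 2 and 18. The log2 fold change was 2.75 ± 0.49 (SE, limma, adjusted p = 0.000189). In the fat pad it had 58.9, 122 and 311 in milk replacer libraries and 14, 21.7, 17.2 and 43.4 in control replicates 2, 18, 19 and 21, all below the milk replacer range (log2 fold change 2.54 ± 0.40, SE, limma, adjusted p = 0.000645). miR-503-5p and miR-497 thus both passed, higher with milk replacer, in the 2 mammary sites. The calls of miR-497 were lost without single control libraries, as given above. The part of the missing epithelial miRNAs in control parenchyma was not tested. miR-424-5p, miR-424-3p and miR-503-3p did not pass in either site. For miR-503-3p in parenchyma this turned on 1 library, with a log2 fold change of 1.13 (limma, adjusted p = 0.264), and of 2.46 without control replicate 1 (limma, adjusted p = 0.0114).

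For each member the 3 most similar other miRNAs over the 48 libraries, by Pearson r of log2(value + 1) among 344 miRNAs, were taken as a description. Libraries of 3 tissues enter, so that r mainly follows the tissues. For miR-15a they were miR-146a (0.771), miR-101-1 (0.77) and miR-101-2 (0.766), and for miR-15b miR-17-5p (0.713), miR-93 (0.672) and miR-744 (0.639). miR-17-5p and miR-93 belong to the miR-17 family, which is known for promoting proliferation. For miR-16a they were miR-26b (0.917), let-7f-2 (0.915) and let-7f-1 (0.914), and for miR-16b miR-2284x (0.853), let-7f-1 (0.842) and let-7f-2 (0.842). For miR-195 they were miR-151-5p (0.909), miR-10a (0.878) and let-7e (0.867), and for miR-497 miR-199a-1-5p (0.82), a miRNA of mesenchymal cells, miR-99a-3p (0.806) and miR-411c-3p (0.79). Numbered copies such as let-7f-1 and let-7f-2 share a mature sequence and are not independent. Gene partners were not each other's nearest profile: miR-497 was number 104 of 344 for miR-195 (r = 0.279), miR-16b number 239 for miR-15b (-0.13) and miR-16a number 38 for miR-15a (0.593).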

How the data were processed

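Small RNA libraries of 15 mammary parenchyma, 16 mammary fat pad and 17 liver samples were analysed. The deposited table holds normalized read counts (raw counts that the authors scaled by a size factor for each library). Tools named in the submitters' processing notes are DESeq2, Trim Galore, FastQC and bcl2fastq. The paper names miRNA callers and a bovine genome only for its own comparison of programs on selected libraries. For the deposited table, the read-assigning program and genome build are not stated. Because every line carries extra quotes, the automatic unit check read none of the values. All values of a library were multiples of 1 step within a tolerance of 0.01, and none above 0 was under 6 steps, so a miRNA listed at 0 can have up to 5 reads. Depth was estimated from the steps, and no count test was used. The authors' own test columns (fold changes, p-values and a mean) were not used.

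Tissue and feeding contrasts were fitted with limma 3.58.1 (R 4.3.3) on log2(value + 1) with a variance trend, over miRNAs with a mean of at least 10, with Benjamini-Hochberg adjustment at 0.05, and checked on simulated data. A fold change is on the log2(value + 1) scale. Tissue contrasts used the 36 milk replacer libraries, and the 12 control libraries separately. Feeding contrasts were fitted within each tissue, and their differences between tissues over 48 libraries. Correlations used two-sided permutation tests (100000 resamples, scipy 1.17.1). Ratios are of (value + 1) within a library. None of 109 pairs of libraries of a group were equal within counting error.

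Named miRNAs were the 6 members, the miR-424 and miR-503 arms, and the 3 others most correlated with each member. The members, lists and comparisons were chosen with earlier results of these data known. Alternatives were other scalings, filters, a pseudocount of 10, no variance trend, leaving out each library, control libraries in or out, and a replicate block.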

Additional observations from a re-analysis of the deposited data

Results flagged for a closer look

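Within groups of 4 to 6 libraries, 48 combinations of a miRNA and a group were screened for a library far from the rest by Dixon's criterion, and 4 were found; chance alone gives about 1 in 20. miR-15a was 126 normalized read counts in parenchyma ad libitum replicate 7, against 39.6 to 70.6 in the other ad libitum parenchyma libraries. That library also had the highest miR-16a (2239), miR-16b (1268) and miR-195 (2268) of its group, and its sum of erythroid miRNAs, 2297, was the highest of the milk replacer parenchyma libraries. miR-497 was 1129 in parenchyma restricted replicate 10, against 1701 to 1821 in the others, and the same library had the lowest miR-503-5p of the milk replacer parenchyma (239). miR-15b was 101 in liver restricted replicate 8, from 27 reads, against 411 to 569 in the others. miR-195 was 1952 in liver control replicate 2, against 1185 to 1396 in the others. The cause of each was not tested.

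The effect of milk replacer against control differed between tissues, by limma, in 4 cases. Over all 345 miRNAs tested, 40.3% passed for liver minus parenchyma and 11.3% for liver minus fat pad. For liver minus parenchyma the difference of the log2 fold changes was 0.80 for miR-195 (adjusted p = 0.0345), -0.69 for miR-497 (adjusted p = 0.0492) and -2.83 for the relative miR-503-5p (adjusted p = 0.000594). For liver minus fat pad it was -2.63 for miR-503-5p (adjusted p = 0.00502). The control parenchyma libraries, which enter 3 of the 4, had few epithelial miRNAs, and their part in these differences was not tested.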

How the results depend on the processing

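Alternatives other than leaving out single libraries gave 756 values for the 108 single results of the 6 members. Of these, 740 kept their side of the threshold, and their direction where they passed. Another 7 lost the threshold, 7 passed it newly and 2 changed sign with a call in 1 of the 2 settings. A change of sign between values that did not pass was not counted. Rescaling each library to a sum of 1000000 gave both sign changes, for liver against parenchyma with milk replacer: miR-16b -0.12 and miR-195 -0.61. The cause was not tested. In counts of members that passed, rescaling to 1000000 gave 1 for control liver against parenchyma (0 as deposited), 2 for milk replacer against control in parenchyma (1 as deposited), and, for differences of that effect between tissues, 1 for liver minus parenchyma (2 as deposited) and 1 for liver minus fat pad (0 as deposited). Rescaling by the median ratio gave 0 for milk replacer against control in parenchyma. No filter on low values gave 1 for control parenchyma against fat pad and 1 for the liver minus parenchyma difference. The counts in this paragraph and the next were not set against the share of all miRNAs that passed under the same setting. A changed count therefore need not be particular to the members.

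Leaving out 1 library at a time gave counts of 0 to 2 for control parenchyma against fat pad and for control liver against parenchyma, 1 to 2 for control liver against fat pad, 0 to 3 for milk replacer against control in parenchyma and 0 to 1 in the fat pad, and, for differences of that effect, 0 to 2 for parenchyma minus fat pad and 0 to 4 for liver minus parenchyma. Where a tissue was left with 2 controls, the spread was taken from all groups of the fit.

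Libraries with the same number deviated together in 18 of 36 milk replacer pairs (r above 0.1; r from -0.13 to 0.46), and 6 of 36 correlated best with their own number. Between control liver and control fat pad 3 of 4 pairs were above 0.1 and 4 of 4 correlated best with their own number, as a hint from the data. Since r was not above 0.1 in every pair, the numbers were not taken as pairs. This check cannot exclude that they stand for animals, since tissues of the same animal need not deviate together. Each recurring number also had the same feeding label in every tissue. With a replicate block the count for the liver minus parenchyma difference was 1 and miR-195 missed the threshold there (0.70, limma, adjusted p = 0.0694); no other member call changed. Groups that differ in feeding share no numbers, so a block could not be fitted within a tissue.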
